A study of Mus musculus with 9 samples.

Results

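The bone morphogenetic protein (BMP) pathway was followed through 10 of its genes in the mouse uterus at GD 3.5 (gestation day), a stage shortly before implantation. The genes were the ligands *Bmp2*, *Bmp4* and *Bmp7*, the receptors *Bmpr1a*, *Acvr1* and *Bmpr2*, and the targets *Id1*, *Id2*, *Id3* and *Smad6*. They were read by every probe set whose platform annotation names 1 of these genes and no other gene, a probe set being a group of short probes that reads a transcript. This gave 23 of the 45037 probe sets on the array, and 10 of 18193 genes, with all 10 genes represented.

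RNA of whole uteri was measured on 9 arrays, 3 for each of 3 groups. The double mutant, of genotype *Mig-6* d/d *Erbb2* d/d, lacked both *Mig-6* (*Errfi1*), a feedback inhibitor of the ERBB receptors, and *Erbb2*, 1 of those receptors, and *Mig-6* d/d mice lacked *Mig-6* alone. In both, Pgr cre/+ deleted the floxed alleles in cells that express the progesterone receptor, so cells without it kept the genes, and since the controls lack cre, the effects of cre and of the deletions cannot be told apart. The control mice carried floxed alleles without cre, all being Mig-6 f/f and some Erbb2 f/f as well, and the genotype behind each control array is unknown here. All females had been mated, and the sample labels give an age of 2 weeks, below the adult age range of the study's methods. The RNA of several mice was pooled, and no source used here says if each array had its own pool, so p-values measure the spread between arrays, which may be technical. The question for each gene was whether its level differed in the uterus without *Mig-6*, and whether it differed when *Erbb2* was removed too.

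BMPs are secreted factors of the TGF-beta superfamily that bind pairs of type I and type II serine/threonine kinase receptors. The activated type I receptor phosphorylates SMAD1, SMAD5 and SMAD9, which enter the nucleus with SMAD4 and switch on targets such as the *Id* genes and *Smad6*, the last of which feeds back to inhibit the pathway. In the mouse uterus *Bmp2* is required for decidualization, the differentiation of the stroma after implantation, and signalling through *Bmpr1a* is required for a receptive uterus.

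The values are intensities on a linear scale, with a median of 7.87 to 8.24 per array, and each probe set is compared only with itself across arrays. *Hoxa10* and *Hoxa11*, which mark uterine stroma, measured 455 to 1005 and 174 to 355 over the 9 arrays. *Erbb2* was low in the double-mutant arrays, at 18.3, 9.88 and 18.4, against 46.5, 39.5 and 44.5 in the *Mig-6* d/d arrays and 29.4, 36.7 and 45.7 in the control arrays. *Errfi1* measured 76.0, 29.8 and 40.3 in the double-mutant arrays, 15.1, 15.96 and 255 in the arrays labelled *Mig-6* d/d, and 454, 564 and 286 in the control arrays. The array labelled *Mig-6* d/d replicate 3 therefore went against its label at *Errfi1*, and the log2 differences of the 10 genes at their leading probe sets, the calls of the other pathway genes and the marker sums are also given without it. Control replicate 3 stood apart from the other control arrays at some BMP pathway genes, which are named with their values below.

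Of the 10 genes, *Id1* was the only one to pass the test in any comparison, and it was lower in double-mutant uteri than in *Mig-6* d/d uteri. A probe set was called when limma's Benjamini-Hochberg adjusted p over all 45037 probe sets was under 0.05 and the change exceeded 1.5-fold. Of the 23 probe sets, 0 were called in *Mig-6* d/d against control, where 2.81% of all probe sets were called. In the double mutant against control 0 of 23 were called, beside 0.357% of all. In the double mutant against *Mig-6* d/d 1 of 23 was called, which is 4.35%, beside 5.13% of all, and its direction was a decrease, as for 2.75% of all. At an unadjusted p under 0.05 and with no fold limit, limma gave 5, 2 and 5 of the 23 in these 3 comparisons, taken in the same order. Over all 45037 probe sets limma gave 8152, 3437 and 9090 at that p. The methods' t-test gave 3, 3 and 4 of the 23. With the 1.5-fold limit both tests gave 1 of the 23 in each comparison, and after Benjamini-Hochberg adjustment the methods' t-test gave 0 in each. The first 2 comparisons share the control arrays, and the first and the last share the *Mig-6* d/d arrays. The deleted genes were not called against control either. At its brighter probe set *Errfi1* gave -3.41 in *Mig-6* d/d (limma adjusted p = 0.0719) and -3.22 in the double mutant (adjusted p = 0.303) on the log2 scale. *Erbb2* gave -1.30 in the double mutant against control (adjusted p = 0.0649) and was called only against *Mig-6* d/d (-1.54, adjusted p = 0.00649). A count of 0 against control therefore does not show that the genes were unchanged.

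The 23 probe sets had small median differences. Their median log2 fold change was -0.01 in *Mig-6* d/d against control, where that of all probe sets was -0.02. It was -0.09 in the double mutant against control, beside 0.00 over all, and -0.12 in the double mutant against *Mig-6* d/d, beside 0.02 over all. In that last comparison 17 of the 23 were negative and 6 positive. Groups did not overlap at 5, 5 and 6 of the 23 probe sets in these comparisons, or 21.7%, 21.7% and 26.1%, where the share over all probe sets was 21%, 11.7% and 26.9%. The 95% interval of the difference stayed within 1.5-fold in both directions for 5, 6 and 6 of the 10 genes at the gene's brightest probe set on average, called its leading probe set here. Of all 18193 genes, 12217, 14548 and 11984 stayed within it, a larger share in each comparison. For the rest of the 10 genes these arrays do not exclude a change of that size.

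**Figure D1:**
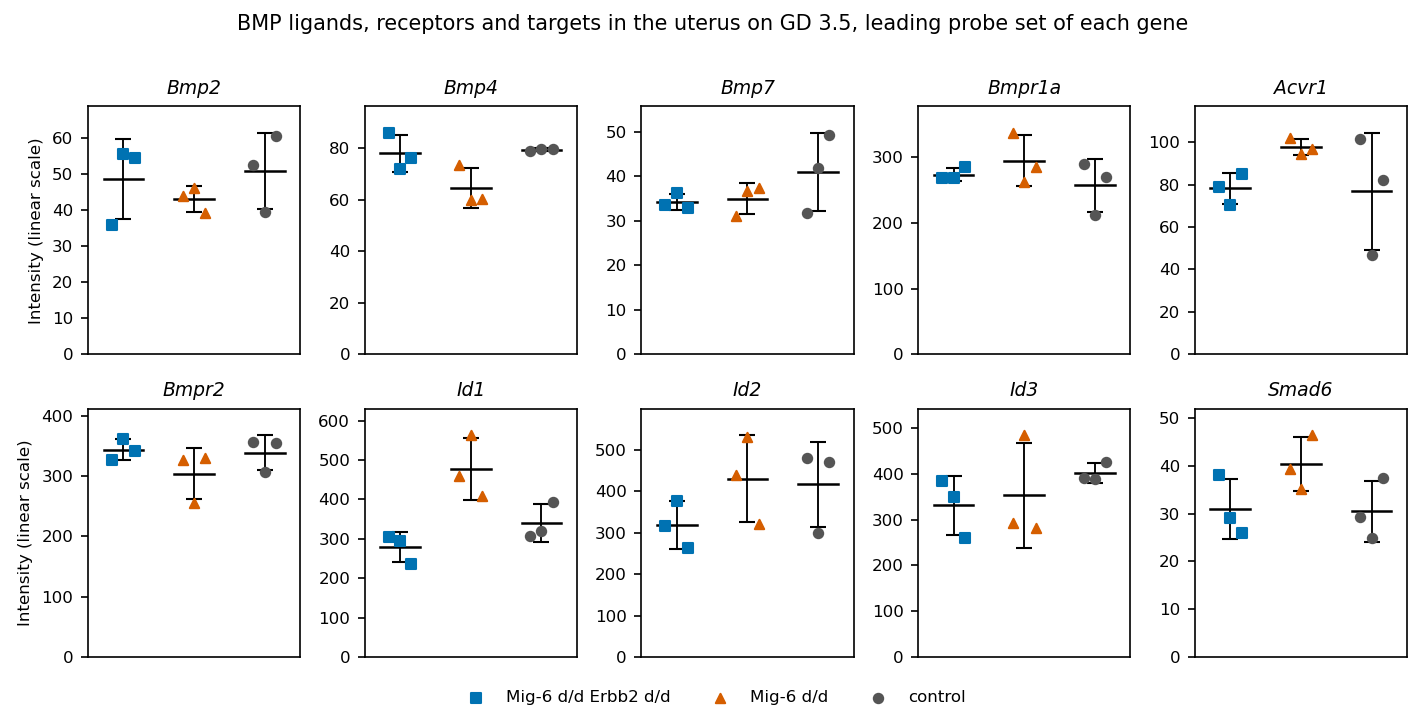
Intensity (linear scale, axes from 0) of the 10 BMP genes at the leading probe set on each array, with the double mutant (squares), *Mig-6* d/d (triangles) and control (circles) from left to right; the long bar is the mean and the error bar the SD (n = 3). *Id1* separates the *Mig-6* d/d arrays, at 408 or more, from the double-mutant arrays, at 306 or less, while most other genes overlap between groups.

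Among the ligands, *Bmp2*, the factor needed for decidualization, measured 35.8, 55.5 and 54.5 in the double-mutant arrays, 43.8, 46.2 and 39.2 in the *Mig-6* d/d arrays, and 52.5, 39.6 and 60.6 in the control arrays. All 3 groups overlapped, and none of the arrays stood away from the rest. The log2 fold change of *Bmp2* was -0.22 ± 0.19 (SE) in *Mig-6* d/d against control, -0.07 ± 0.19 in the double mutant against control and 0.15 ± 0.19 in the double mutant against *Mig-6* d/d. The 95% interval of the first reached 0.635-fold to 1.16-fold, while the second stayed between 0.704-fold and 1.28-fold and the last between 0.821-fold and 1.498-fold.

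*Bmp4*, a mesenchymal ligand in many developing organs, measured 86.0, 72 and 76.2 in the double-mutant arrays, 73.5, 60.0 and 60.3 in the *Mig-6* d/d arrays, and 78.9, 79.5 and 79.8 in the control arrays. All *Mig-6* d/d arrays lay below the control arrays, which were nearly equal to each other. The difference was -0.30 ± 0.11 on the log2 scale and was not called (limma adjusted p = 0.171). Double-mutant uteri differed from control by -0.03 ± 0.11, and their *Bmp4* was 0.27 ± 0.11 above that of *Mig-6* d/d uteri (adjusted p = 0.191). All 3 of these intervals stayed within 1.5-fold.

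*Bmp7*, a ligand also known from epithelia such as that of the kidney, was read by 3 probe sets that disagreed. At the leading probe set, 1435479_at, it measured 33.6, 36.3 and 32.8 in the double-mutant arrays, 31.0, 36.6 and 37.3 in the *Mig-6* d/d arrays, and 31.8, 41.9 and 49.3 in the control arrays, so all groups overlapped. At 1418910_at it measured 22.9, 21.9 and 12.3 in the double-mutant arrays, 21.3, 25.4 and 22.5 in the *Mig-6* d/d arrays, and 31.7, 40.7 and 38.7 in the control arrays. Here every array of both knockouts lay below every control array.

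The log2 fold change at 1418910_at was -1.01 ± 0.21 in the double mutant against control and -0.68 ± 0.21 in *Mig-6* d/d against control, with limma adjusted p = 0.125 and 0.117, so neither was called. At the leading probe set of *Bmp7* the same differences were -0.24 ± 0.15 and -0.21 ± 0.15. The dim 1432410_a_at gave -0.36 ± 0.13 and -0.13 ± 0.13. The difference between *Mig-6* d/d and control at 1418910_at passed the test, among the fits without 1 array, only without double-mutant replicate 3, the array at 12.3 (-0.68, adjusted p = 0.0269).

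None of the 3 receptors was called in any comparison, and most of their probe sets kept within 1.5-fold. *Bmpr2*, the type II receptor, measured 327, 362 and 342 in the double-mutant arrays, 326, 256 and 330.2 in the *Mig-6* d/d arrays, and 356, 306 and 355 in the control arrays. Its intervals at all 3 of its probe sets stayed within 1.5-fold in all 3 comparisons. *Acvr1*, a type I receptor also called ALK2, measured 78.9, 70.6 and 85.2 in the double-mutant arrays, 102, 94.7 and 96.8 in the *Mig-6* d/d arrays, and 101, 46.9 and 82.3 in the control arrays. The double-mutant arrays lay below all *Mig-6* d/d arrays, and the control arrays spanned both, with control replicate 2 the lowest. The log2 difference of *Acvr1* between the double mutant and *Mig-6* d/d was -0.32 ± 0.23 (adjusted p = 0.507), and its other probe sets gave -0.09 and 0.07.

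*Bmpr1a*, the type I receptor also called ALK3, was read by 6 probe sets. The leading one, 1425492_at, measured 268, 268 and 285 in the double-mutant arrays, 337, 261 and 284 in the *Mig-6* d/d arrays, and 289, 212 and 270.0 in the control arrays, and all groups overlapped. In the double mutant against *Mig-6* d/d all 6 probe sets were negative, from -0.41 to -0.04 with a median of -0.21, and 3 of the 6 did not overlap between the groups, beside 26.9% of all probe sets.

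Of these 6, 1425493_at had the smallest p. It measured 46.6, 45.4 and 49.3 in the double-mutant arrays, 63.9, 59.2 and 62.5 in the *Mig-6* d/d arrays, and 56.5, 52.0 and 51.9 in the control arrays. The *Mig-6* d/d arrays were the highest, the double-mutant arrays the lowest and the control arrays lay between them without overlap. The log2 difference between the double mutant and *Mig-6* d/d was -0.39 ± 0.09 with adjusted p = 0.0274, which was under the fold limit and so was not called. Without that limit, 6.68% of all probe sets passed. Without any 1 of *Mig-6* d/d replicates 1 and 3 and double-mutant replicates 1 and 2 this adjusted p was 0.0868 to 0.0981. Against control, the probe set differed by -0.18 ± 0.09 in double-mutant uteri and by 0.21 ± 0.09 in *Mig-6* d/d uteri, and neither was called (adjusted p = 0.695 and 0.237).

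**Figure D2:**
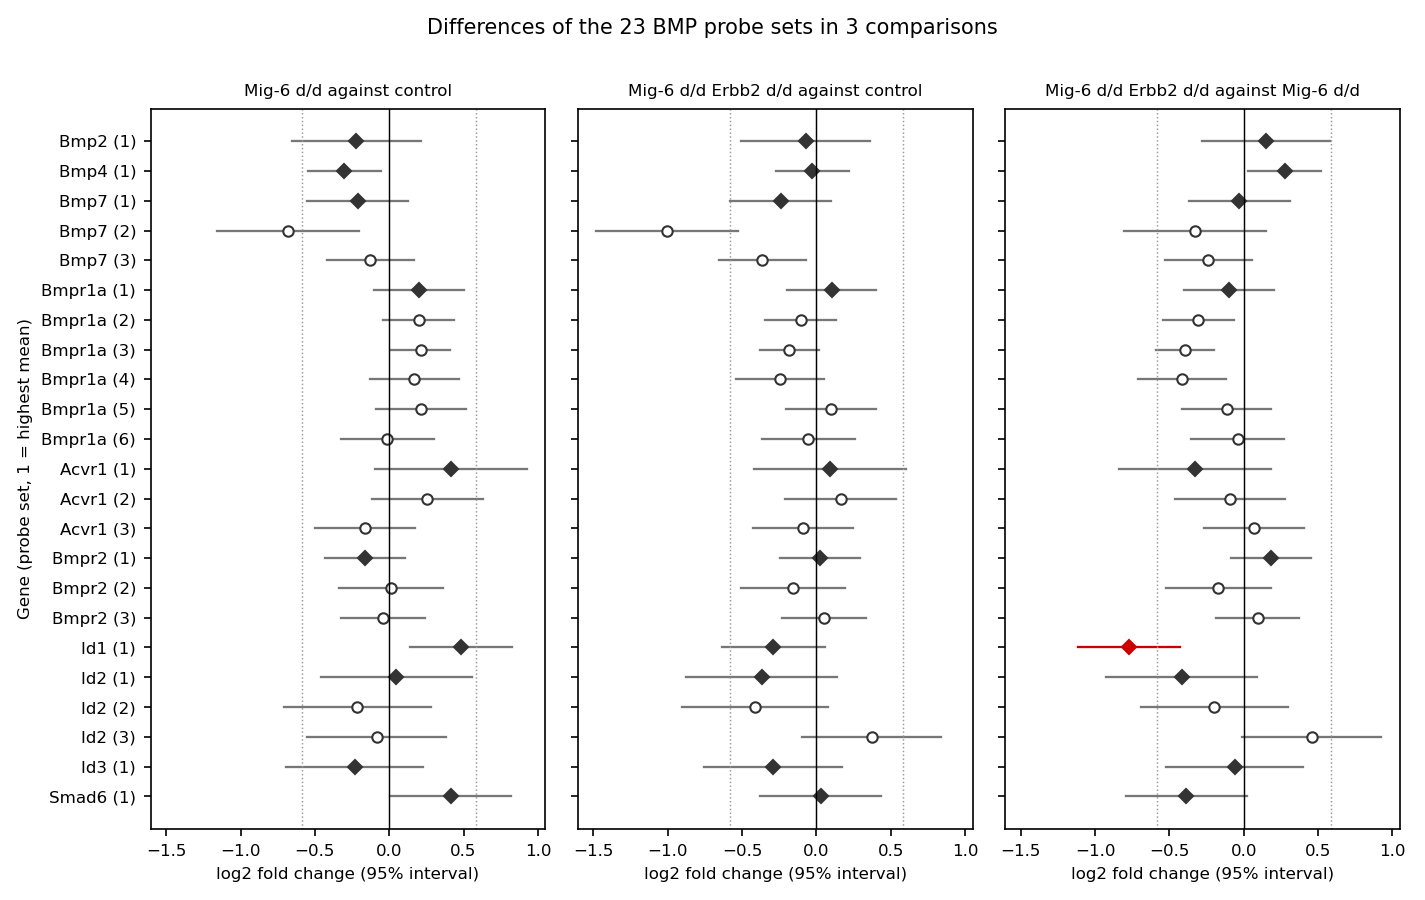
Log2 fold change (x axis) of the 23 probe sets of the 10 BMP genes (rows, numbered within a gene from the highest mean) in the 3 comparisons, with 95% intervals from limma; filled diamonds are leading probe sets, the dotted lines mark 1.5-fold and the coloured point is the called one. *Id1* in the double mutant against *Mig-6* d/d, at -0.77, is the only called value, and the second *Bmp7* probe set lies at -0.68 and -1.01 against control with wide intervals.

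Among the targets, *Id1* was the gene that separated the 2 knockouts. The ID proteins are helix-loop-helix proteins without a DNA-binding region that block basic helix-loop-helix transcription factors, and *Id1* is a direct SMAD target in many cell types. *Id1* measured 306, 295 and 236 in the double-mutant arrays, 460.3, 563 and 408 in the *Mig-6* d/d arrays, and 307, 320.4 and 395 in the control arrays. Highest were the *Mig-6* d/d arrays, the control arrays came next and the double-mutant arrays were the lowest, with no overlap between any 2 groups. Both gaps to control were narrow, with double-mutant replicate 1 at 305.7 below control replicate 1 at 306.6. Control replicate 3, at 394.5, lay below *Mig-6* d/d replicate 3, at 408.2. Of all probe sets, 11.7% did not overlap between the double mutant and control, and 21% between *Mig-6* d/d and control. Between the 2 knockouts this share was 26.9%. The mean of *Id1* was 279 ± 37.7 in double-mutant uteri, 477 ± 78.6 in *Mig-6* d/d uteri and 340.5 ± 47.3 in control uteri (SD, n = 3 each).

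*Id1* fell in double-mutant uteri relative to *Mig-6* d/d uteri to 0.586-fold (95% interval 0.461 to 0.743), a log2 change of -0.77 ± 0.15 with limma adjusted p = 0.0179. It was 0.48 ± 0.15 above control in *Mig-6* d/d uteri (adjusted p = 0.122) and 0.29 below it in double-mutant uteri (log2 fold change -0.29 ± 0.15, adjusted p = 0.746), and neither was called. The call was lost without *Mig-6* d/d replicate 1 (-0.79, adjusted p = 0.0551) and without double-mutant replicate 3 (-0.66, adjusted p = 0.0556). Without the array labelled *Mig-6* d/d replicate 3 it was -0.88, with adjusted p = 0.0276.

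The summed intensity of 12 epithelial markers was, like *Id1*, highest in the *Mig-6* d/d arrays: it was 2794 to 4047 in the double-mutant arrays, 8027 to 12424 in the *Mig-6* d/d arrays (8027 to 10869 without replicate 3) and 3062 to 5523 in the control arrays. The 5523 was control replicate 3, with 3296 and 3062 in the other control arrays. Unlike *Id1*, these sums overlapped between control and the double mutant. Of these 12 markers, 8 were called lower in the double mutant against *Mig-6* d/d, with a median log2 fold change of -1.86, and 6 were called higher in *Mig-6* d/d against control, with a median of 1.54. None of the 12 markers was at 0. Of 7 uterine gland markers, 0 were called in any comparison. Their summed intensity was 415 to 609 in the double-mutant arrays and 761 to 969 in the control arrays. It was 426 to 792 in the *Mig-6* d/d arrays, and 426 to 521 without replicate 3. In whole uteri, fewer cells of a type and less RNA per cell cannot be told apart, and the part of the epithelium in the *Id1* difference was not tested.

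*Id2*, another of the ID proteins, measured 317, 377 and 262 in the double-mutant arrays, 438, 529 and 321 in the *Mig-6* d/d arrays, and 480.3, 299 and 469 in the control arrays at its leading probe set. The groups overlapped, and the lowest array was 1 of the double-mutant arrays. Its log2 fold change was -0.42 ± 0.23 for double-mutant against *Mig-6* d/d uteri and -0.37 ± 0.23 for double-mutant against control uteri (adjusted p = 0.362 and 0.797), while the dim 1453596_at gave 0.46 ± 0.21 and 0.37 ± 0.21.

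*Id3*, widely used with *Id1* as a readout of BMP signalling, measured 385, 350.1 and 260.2 in the double-mutant arrays, 292, 484 and 282 in the *Mig-6* d/d arrays, and 391, 389 and 426 in the control arrays. The double-mutant arrays lay below all control arrays, but the *Mig-6* d/d arrays spanned both groups. Its log2 differences were -0.30 ± 0.21, -0.23 ± 0.21 and -0.06 ± 0.21 for the double mutant against control, *Mig-6* d/d against control, and the double mutant against *Mig-6* d/d. None was called (adjusted p = 0.832, 0.633 and 0.919).

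*Smad6*, the inhibitory SMAD that targets BMP type I receptors, measured 38.1, 29.1 and 26.0 in the double-mutant arrays, 39.4, 35.1 and 46.4 in the *Mig-6* d/d arrays, and 29.3, 24.9 and 37.4 in the control arrays. The groups overlapped, with the *Mig-6* d/d arrays toward the top. Its log2 fold change was 0.41 ± 0.18 in *Mig-6* d/d against control (adjusted p = 0.269) and -0.39 ± 0.18 in the double mutant against *Mig-6* d/d (adjusted p = 0.278). In that last comparison all 4 targets were negative at the leading probe set, with a median of -0.40, and 1 of them was called.

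Without the array labelled *Mig-6* d/d replicate 3, *Id1* in the double mutant against *Mig-6* d/d was still the only called value of the 10 genes. In that comparison the log2 differences of the other targets were then -0.61 for *Id2* (adjusted p = 0.197), -0.20 for *Id3* and -0.28 for *Smad6*. Those of the ligands were 0.08 for *Bmp2*, 0.23 for *Bmp4* and 0.02 for *Bmp7*, the last having been -0.03 with the array. Those of the receptors were -0.12 for *Bmpr1a*, -0.33 for *Acvr1* and 0.25 for *Bmpr2*. Only *Bmp7* changed sign when the array was left out. In *Mig-6* d/d against control the targets differed without that array by 0.59 for *Id1* (adjusted p = 0.129), 0.24 for *Id2*, -0.10 for *Id3* and 0.31 for *Smad6*. The ligands differed by -0.16 for *Bmp2*, -0.26 for *Bmp4* and -0.26 for *Bmp7*, and the receptors by 0.22 for *Bmpr1a*, 0.43 for *Acvr1* and -0.23 for *Bmpr2*. Each of these 10 values kept the sign it had with the array.

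Sequence upstream of the transcription start is shown for the *Id* genes, since this family held a called member in each direction between the 2 knockouts, *Id1* and, among the other genes of the pathway, *Id4*. RefSeq promoter windows (assembly GRCm38.p6, 250 bases before the start) were found for 7 of the 10 genes and for *Id4*, and those of *Id2*, *Id3* and *Id4* are printed 5′ to 3′ on the gene's strand. No window was found for *Id1*, so its sequence was not examined, and *Id2* and *Id3* were not called. Capitals mark GGCGCC, the core of a SMAD-binding BMP response element, which reads the same on both strands. *Id2* lies at chr12:25096093-25096342 on the minus strand, *Id3* at chr4:136143572-136143821 and *Id4* at chr13:48260866-48261115, both on the plus strand.
Id2: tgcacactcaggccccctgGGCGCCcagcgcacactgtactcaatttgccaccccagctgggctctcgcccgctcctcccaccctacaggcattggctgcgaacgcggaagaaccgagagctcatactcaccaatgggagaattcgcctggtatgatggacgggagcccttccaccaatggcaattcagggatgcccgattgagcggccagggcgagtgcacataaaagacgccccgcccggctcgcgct
Id3: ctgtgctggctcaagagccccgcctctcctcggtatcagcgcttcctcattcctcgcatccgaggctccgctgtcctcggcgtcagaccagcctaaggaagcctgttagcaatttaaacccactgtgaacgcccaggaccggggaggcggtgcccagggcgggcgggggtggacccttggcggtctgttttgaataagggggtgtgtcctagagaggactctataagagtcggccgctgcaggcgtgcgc
Id4: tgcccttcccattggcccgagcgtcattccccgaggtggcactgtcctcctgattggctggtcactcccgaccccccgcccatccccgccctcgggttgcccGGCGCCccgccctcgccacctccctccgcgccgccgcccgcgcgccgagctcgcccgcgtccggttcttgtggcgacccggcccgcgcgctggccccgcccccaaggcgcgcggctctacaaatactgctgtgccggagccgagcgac
The motif began 231 bases before the start in *Id2* and 148 bases before it in *Id4*, and these letters were not in the *Id3* window. It was found in 3 of the 7 matched members (*Bmpr1a*, *Bmpr2* and *Id2*) and in 9.59% of the 32851 windows of the same length. A match describes the sequence only, and G and C made up 62.8% of the *Id2* and *Id3* windows and 75.6% of that of *Id4*.

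The rest of the pathway was read through 70 further genes, of which 65 had a probe set with their symbol alone, each counted at its leading probe set; a gene with several roles is counted in each. The lists were chosen with earlier results of these data known. The shares here and in the parts below therefore describe these lists and do not test the pathway. In the double mutant against *Mig-6* d/d 12 of the 65 were called, or 18.5%, beside 7.48% of all genes, with 8 higher and 4 lower (3.73% and 3.75% of all genes). In *Mig-6* d/d against control 4 of 65 were called, or 6.15%, beside 4.35% of all genes, with 1 higher and 3 lower (2.54% and 1.8% of all genes). In the double mutant against control 0 of 65 were called, beside 0.407% of all genes, with 10 at an unadjusted p under 0.05 in limma and 6 by the methods' t-test, both with no fold limit. Of all 18193 genes, 1446 reached that p in limma. With the 1.5-fold limit the counts among the 65 were 3 and 2, and the methods' t-test gave 0 after Benjamini-Hochberg adjustment. Without the array labelled *Mig-6* d/d replicate 3 the counts were 8, 0 and 0 in the same order, and the 8 comprised 6 higher and 2 lower genes. Over all 45037 probe sets the counts also fell without that array. They went from 2312 to 1458 in the first of these comparisons and from 1265 to 419 in the second.

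**Figure D3:**
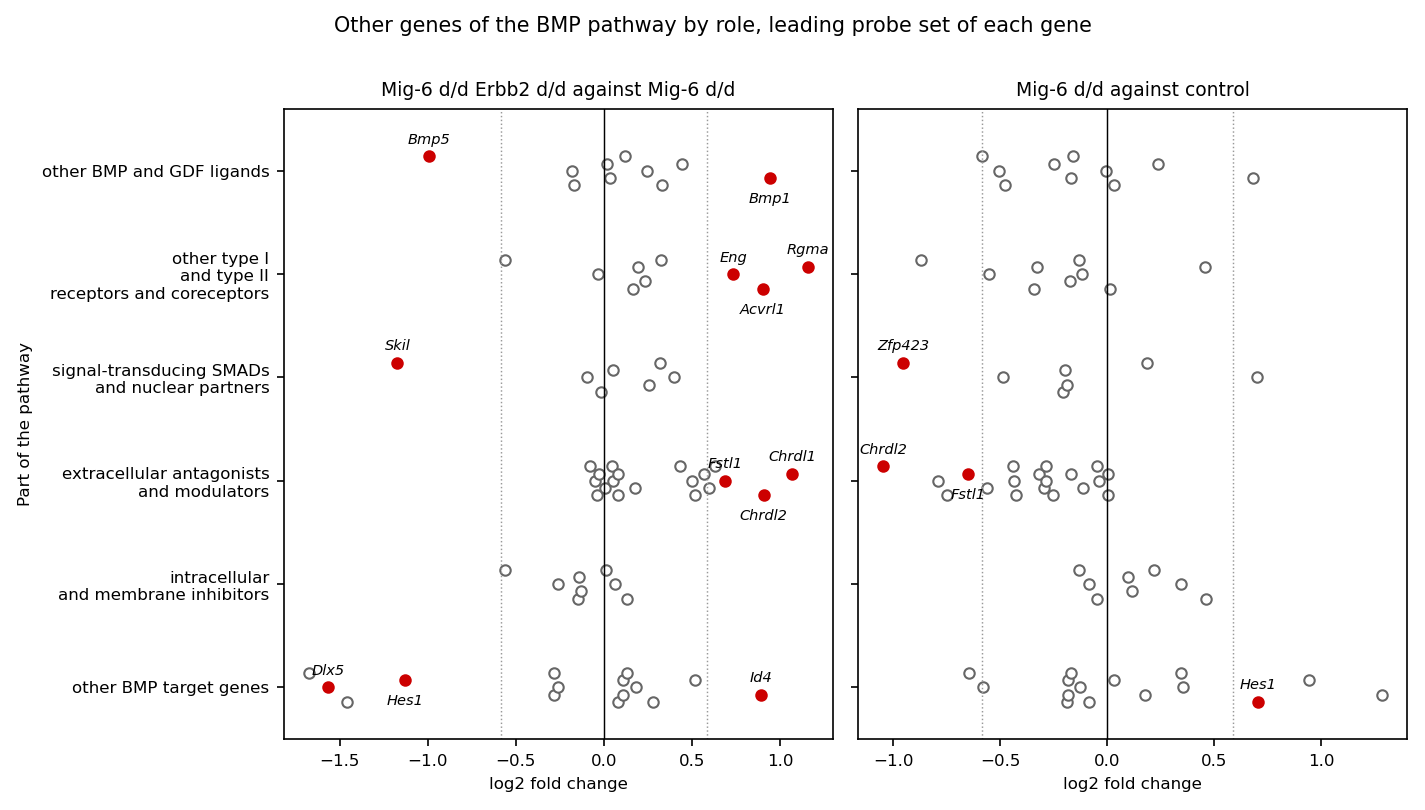
Log2 fold change (x axis) of 65 other BMP pathway genes at the leading probe set, by role (rows; vertical position within a row has no meaning), in the double mutant against *Mig-6* d/d (left) and *Mig-6* d/d against control (right); filled points are called and named, and dotted lines mark 1.5-fold. Called receptors and antagonists lie on the right in the left panel, and *Dlx5*, *Skil*, *Hes1* and *Bmp5* on the left.

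Of 10 further genes listed as ligands by name, *Bmp1*, which is not a ligand, rose in the double mutant against *Mig-6* d/d and *Bmp5* fell. *Bmp1*, which despite its name is a protease that processes collagen and cleaves the antagonist chordin, measured 156, 137 and 144 in the double-mutant arrays, 71.0, 72.7 and 83.7 in the *Mig-6* d/d arrays, and 89.3, 119.7 and 116 in the control arrays. It was highest in the double-mutant arrays and lowest in the *Mig-6* d/d arrays, with no overlap, and rose by 0.94 ± 0.13 on the log2 scale (adjusted p = 0.00417), with 2 of its 3 probe sets called. *Bmp5*, a ligand close to *Bmp7*, was dim, at 9.59, 5.52 and 7.54 in the double-mutant arrays, 15.2, 15.6 and 13.3 in the *Mig-6* d/d arrays, and 8.25, 9.01 and 10.3 in the control arrays. The *Mig-6* d/d arrays stood above all others, and the log2 fold change was -0.99 ± 0.18 (adjusted p = 0.0121). Only 1 of the 3 *Bmp5* probe sets was called there, though all 3 were negative. The others gave -0.32 (adjusted p = 0.130) and -0.21 (adjusted p = 0.303).

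Of the 9 other receptors and coreceptors, 3 rose in the double mutant against *Mig-6* d/d and 0 fell, with a median of 0.23. These calls were 33.3% of the 9, beside 7.48% of all genes. *Acvrl1*, the type I receptor of endothelial cells, measured 40.9, 36.9 and 35.2 in the double-mutant arrays, 17.0, 19.2 and 24.9 in the *Mig-6* d/d arrays, and 27.0, 27.4 and 21.9 in the control arrays. Its log2 fold change was 0.90 ± 0.15 (adjusted p = 0.00882), with the double-mutant arrays above both other groups. The second *Acvrl1* probe set gave 0.59 and was not called (adjusted p = 0.0855). *Eng*, an endothelial coreceptor, measured 148, 149 and 158 in the double-mutant arrays, 94.7, 86.4 and 92.6 in the *Mig-6* d/d arrays, and 109.8, 159 and 137 in the control arrays. The *Mig-6* d/d arrays were below all others, and both of its probe sets were called, with 0.73 ± 0.13 at the leading one (adjusted p = 0.0110). *Rgma*, a coreceptor of the repulsive guidance family, measured 50.3, 38.0 and 48.3 in the double-mutant arrays, 29.3, 12.4 and 22.9 in the *Mig-6* d/d arrays, and 31.0, 47.3 and 34.7 in the control arrays, and rose by 1.16 ± 0.28 (adjusted p = 0.0372). The *Rgma* call was lost without any 1 of 5 arrays (*Mig-6* d/d replicates 2 and 3 and each double-mutant replicate), with log2 fold changes of 0.81 to 1.28 and adjusted p = 0.0550 to 0.124.

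Like *Acvrl1* and *Eng*, endothelial markers rose in the double mutant against *Mig-6* d/d. Their summed intensity over 11 genes, *Eng* among them, was 1090 (1089.77) to 1318 in the double-mutant arrays, 728 to 899 in the *Mig-6* d/d arrays (728 to 771 without replicate 3) and 1248 to 1383 in the control arrays. Unlike *Acvrl1*, these sums overlapped between the double mutant and control and did not overlap between *Mig-6* d/d and control. *Acvrl1* differed by -0.33 in that last comparison and was not called (limma adjusted p = 0.282). Of the 11 markers, 6 were called higher in the double mutant against *Mig-6* d/d and 4 lower in *Mig-6* d/d against control, with medians of 0.68 and -0.74, and none was at 0. The part of these marker differences in the receptor values was not tested.

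Of the 7 signal-transducing SMADs and nuclear partners, *Skil* fell between the knockouts and *Zfp423* fell in *Mig-6* d/d against control. *Skil*, a SMAD corepressor also called SnoN, measured 86.5, 93.2 and 155 in the double-mutant arrays, 279, 185 and 277 in the *Mig-6* d/d arrays, and 142, 133 and 178 in the control arrays. The *Mig-6* d/d arrays were the highest, and the change in the double mutant against *Mig-6* d/d was -1.17 ± 0.23 (adjusted p = 0.0178), although the second probe set of *Skil* gave 0.10. The *Skil* call was lost without any 1 of *Mig-6* d/d replicates 1 and 3 and double-mutant replicates 1 and 2, with log2 fold changes of -1.08 to -1.02 and adjusted p = 0.0645 to 0.0712.

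*Zfp423*, a zinc finger protein that joins BMP-activated SMADs on DNA, measured 17.0, 29.6 and 20.1 in the double-mutant arrays, 17.3, 15.1 and 16.9 in the *Mig-6* d/d arrays, and 32.4, 29.3 and 34.0 in the control arrays. It fell by 0.96 on the log2 scale in *Mig-6* d/d against control (adjusted p = 0.0232), and the double-mutant arrays spanned the gap. The call was lost without control replicate 2 or without any 1 of the *Mig-6* d/d replicates (-1.01 to -0.90, adjusted p = 0.0557 to 0.0692).

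Of the 19 extracellular antagonists and modulators measured, 3 rose and 0 fell in the double mutant against *Mig-6* d/d, and 2 fell and 0 rose in *Mig-6* d/d against control. These calls were 15.8% and 10.5% of the 19, beside 7.48% and 4.35% of all genes. The log2 fold change was positive for 15 of the 19 in the first of these comparisons, with a median of 0.18 beside 0.03 over all genes, and negative for 17 of the 19 in the second, with a median of -0.29 beside -0.03 over all genes. *Chrdl2*, a chordin-like BMP antagonist, measured 139, 112 and 172 in the double-mutant arrays, 84.0, 59.3 and 81.2 in the *Mig-6* d/d arrays, and 132, 181 and 149 in the control arrays. The *Mig-6* d/d arrays lay below all others, by -1.05 ± 0.19 against control (adjusted p = 0.0210), and *Chrdl2* rose by 0.91 ± 0.19 in the double mutant against *Mig-6* d/d (adjusted p = 0.0206).

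*Fstl1*, a follistatin-like glycoprotein that antagonizes BMP4 in the lung, measured 1378, 1506 and 1394 in the double-mutant arrays, 768, 1058 and 847 in the *Mig-6* d/d arrays, and 1315, 1523 and 1335 in the control arrays. Again the *Mig-6* d/d arrays lay below all others. The log2 change was -0.65 ± 0.13 in *Mig-6* d/d against control (adjusted p = 0.0273) and 0.69 ± 0.13 in the double mutant against *Mig-6* d/d (adjusted p = 0.0127). Of its 2 probe sets, 1 was called in the first of these comparisons and both in the second. *Chrdl1*, the other chordin-like antagonist, was dim, at 18.9, 18.8 and 17.1 in the double-mutant arrays, 9.40, 7.18 and 9.76 in the *Mig-6* d/d arrays, and 14.0, 21.6 and 11.3 in the control arrays. It rose by 1.07 ± 0.21 in the double mutant against *Mig-6* d/d (adjusted p = 0.0172), with 1 of its 4 probe sets called and all 4 positive.

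Several of these antagonist calls were lost when 1 array was left out. In *Mig-6* d/d against control, *Chrdl2* and *Fstl1* were not called without control replicate 2, *Mig-6* d/d replicate 1 or *Mig-6* d/d replicate 3, with log2 fold changes of -1.14 to -0.93 for *Chrdl2* and -0.62 to -0.55 for *Fstl1*, and adjusted p = 0.0535 to 0.0739 and 0.0887 to 0.0913. Over all probe sets the count also fell without these arrays, from 1265 to 353, 357 and 419 in the same order, so such losses were not particular to the antagonists. In the double mutant against *Mig-6* d/d the *Chrdl2* call was lost without *Mig-6* d/d replicate 2 or double-mutant replicate 1 or 3 (0.75 to 0.90, adjusted p = 0.0550 to 0.0712). The *Chrdl1* call was lost there without double-mutant replicate 1 or 2 (1.04 to 1.05, adjusted p = 0.0611 to 0.0644), and that of *Fstl1* without double-mutant replicate 2 (0.65, adjusted p = 0.0532).

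Summed stromal and smooth muscle markers were also lowest in the *Mig-6* d/d arrays. The summed intensity of 12 stromal markers was 28097 to 29327 in the double-mutant arrays, 20816 to 24857 in the *Mig-6* d/d arrays (the same without replicate 3) and 24955 to 29201 in the control arrays. That of 9 smooth muscle markers was 15508 (15507.5) to 19144 (19143.5) in the double-mutant arrays, 8660.1 to 12059 in the *Mig-6* d/d arrays (8660.1 to 11999 without replicate 3) and 12791 to 16849 in the control arrays. Of the stromal markers 2 were called higher in the double mutant than in *Mig-6* d/d, and of the smooth muscle markers 4, with medians of 0.48 and 0.98 and none at 0. Their part in the antagonist values was not tested.

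Of the 8 intracellular and membrane inhibitors 0 were called in any comparison by limma, with 0, 0 and 1 at an unadjusted p under 0.05 and no fold limit in *Mig-6* d/d against control, the double mutant against control and the double mutant against *Mig-6* d/d. The methods' t-test gave 0, 0 and 2 in the same way and 0 in each after Benjamini-Hochberg adjustment. Of all 18193 genes, 4360, 1446 and 4828 reached that unadjusted p in limma. *Tob1*, an antiproliferative protein that binds SMADs, measured 149, 157 and 181 in the double-mutant arrays, 226, 218 and 275 in the *Mig-6* d/d arrays, and 232, 115 and 196 in the control arrays, with a log2 difference of -0.56 between the knockouts. *Smad7*, the other inhibitory SMAD, measured 51.3, 47.1 and 49.99 in the double-mutant arrays, 63.3, 55.3 and 59.6 in the *Mig-6* d/d arrays, and 49.5, 34.9 and 58.9 in the control arrays, with a difference of -0.26. Both were lower in all double-mutant arrays than in the *Mig-6* d/d arrays, and the control arrays overlapped at least 1 of the knockouts.

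Of 15 other target genes, *Id4* rose and *Hes1* and *Dlx5* fell in the double mutant against *Mig-6* d/d. These calls were 20% of the 15, beside 7.48% of all genes. *Id4*, the fourth gene of the *Id* family, measured 401, 247 and 353 in the double-mutant arrays, 202, 157 and 173 in the *Mig-6* d/d arrays, and 228, 238 and 388 in the control arrays. It was lowest in the *Mig-6* d/d arrays, where *Id1* was highest, and all 3 of its probe sets were called, with 0.89 ± 0.23 at the leading one (adjusted p = 0.0450). *Hes1*, a repressor best known as a Notch target, measured 51.1, 47.7 and 49.3 in the double-mutant arrays, 115, 109.8 and 100.2 in the *Mig-6* d/d arrays, and 53.0, 68.5 and 80.4 in the control arrays. The 3 groups did not overlap, and *Hes1* fell by 1.13 on the log2 scale in the double mutant against *Mig-6* d/d (adjusted p = 0.00300) and rose by 0.71 ± 0.14 in *Mig-6* d/d against control (adjusted p = 0.0297). *Dlx5*, a homeobox gene of the uterine epithelium, measured 36.8, 46.5 and 59.7 in the double-mutant arrays, 176, 98.7 and 153 in the *Mig-6* d/d arrays, and 49.7, 37.1 and 99.5 in the control arrays, and fell by 1.57 (adjusted p = 0.0247).

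The *Hes1* call against control was lost without control replicate 1 or 2 or any 1 *Mig-6* d/d replicate (0.54 to 0.76, adjusted p = 0.0327 to 0.0987), through the fold limit or the adjusted p. Its call between the knockouts was kept without each of the 9 arrays in turn. So were those of *Bmp1*, *Bmp5*, *Acvrl1* and *Eng*, each at its leading probe set only. The *Id4* call was lost without any 1 *Mig-6* d/d replicate or double-mutant replicate 1 or 3 (0.74 to 0.99, adjusted p = 0.0814 to 0.154), and that of *Dlx5* without *Mig-6* d/d replicate 1 or 3 or double-mutant replicate 1 or 2 (-1.56 to -1.39, adjusted p = 0.0766 to 0.0970). The 12 epithelial markers whose sums are given with *Id1* moved the way *Hes1* and *Dlx5* did, and their part in these values was not tested.

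**Figure D4:**
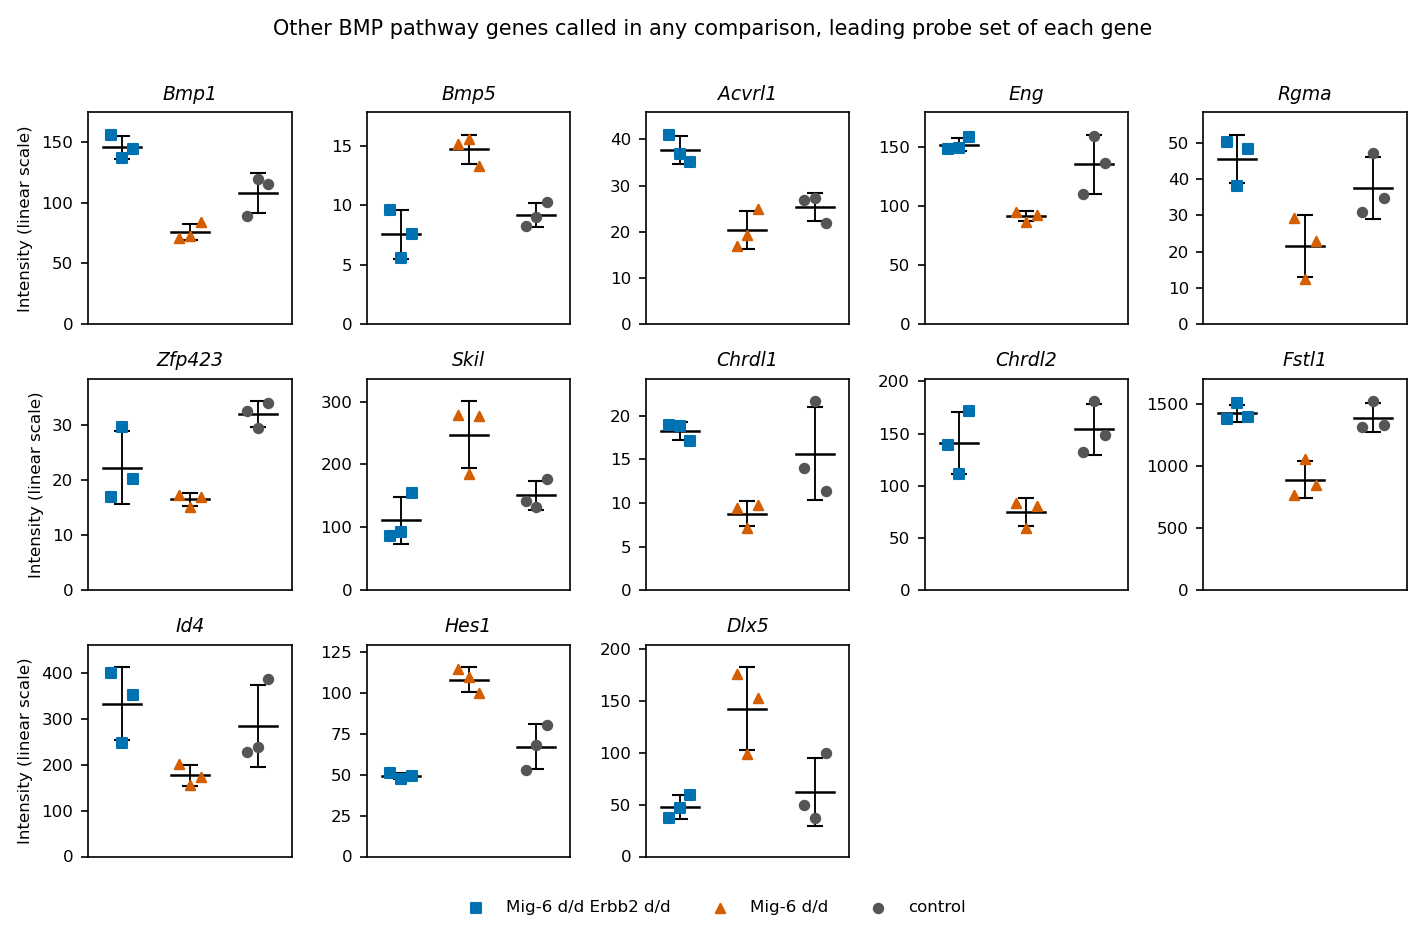
Intensity (linear scale, axes from 0) on each array of the 13 other BMP pathway genes called in any comparison, leading probe set, with the double mutant (squares), *Mig-6* d/d (triangles) and control (circles) from left to right; the long bar is the mean and the error bar the SD (n = 3). *Bmp5*, *Skil*, *Hes1* and *Dlx5* are highest in *Mig-6* d/d uteri and the other 9 genes have their lowest mean there.

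The counts also moved with control replicate 3. Without it 12 of the 65 genes were called in *Mig-6* d/d against control, 4 higher and 8 lower, and 14 in the double mutant against *Mig-6* d/d, 8 higher and 6 lower. With all arrays, 1265 and 2312 of all probe sets were called in these comparisons. The highest such counts in any fit leaving out an array were 1762 and 2545. Whether the rise without control replicate 3 was particular to the 65 genes was not tested. At *Fst*, the activin and BMP antagonist follistatin, named here after its values were seen, the arrays measured 164, 144 and 73.7 in double-mutant uteri, 53.4, 109 and 80.8 in *Mig-6* d/d uteri, and 255, 239 and 14.0 in control uteri. The control arrays thus spanned 18.2-fold at *Fst*, with control replicate 3 below all 8 other arrays.

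Genes whose leading probe set followed *Bmp2* or *Id1* most closely over the 9 arrays were taken from 11970 genes above the median level. Those most like *Bmp2* were *Srsf11* (Pearson's r = 0.96), *Slc25a40* (0.94) and *Ubr3* (0.92), and those most like *Id1* were *Cd9* (0.98), *Usp10* (0.97) and *Slc15a2* (0.97). These are descriptions over arrays that share 3 groups, so a gene that differs between the groups in the same order has a high value. Among the 10 BMP genes the correlation with *Id1* over the 9 arrays was highest for *Id2* (0.68) and lowest for *Bmpr2* (-0.64).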

How the data were processed

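Uterine RNA was hybridised to Affymetrix Mouse Genome 430 2.0 arrays. The deposited table holds linear intensities that the authors made with RMA (per the submitters' processing notes) and quantile normalization in Bioconductor, at a version not given in the sources used here. RMA and quantile normalization give the arrays a like distribution, so a shift of most genes would be removed, and the precision is limited by the number of arrays. No scanner files or detection calls were used here. Names came from the platform annotation: 34945 probe sets had 1 gene symbol, 932 several and 9160 none, and 34741 were matched through Entrez with 0 symbols changed.

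Intensities were taken to log2 without a filter. The 3 groups were fitted in 1 model with limma 3.58.1 (lmFit, eBayes) in R 4.3.3, with Benjamini-Hochberg adjustment over 45037 probe sets; this was tested on simulated data. Figures were drawn with matplotlib 3.10.9 in Python 3.11.15. The genes and lists were chosen with earlier results of these data known. All 10 BMP genes were named, with every called gene of the 6 wider lists, the 2 genes of smallest p in a list with none, and the 3 genes most correlated with *Bmp2* and with each called BMP gene. Replicate numbers were not treated as pairs: of 9 same-number correlations of deviations from group means (-0.13 to 0.20), 3 were above 0.1. Correlations between different numbers ran from -0.30 to 0.33. With 3 arrays per group these values cannot settle whether the numbers pair the arrays. Alternatives covered the normalization, an offset of 16, a filter on dim probe sets, the variance model, the arrays fitted, the thresholds, the methods' t-test, the choice of probe set and leaving out each array.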

Additional observations from a re-analysis of the deposited data

Results flagged for a closer look

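Each gene below differed between the effects of the 2 knockouts, tested directly as the double mutant against *Mig-6* d/d in limma, since the control arrays cancel in that difference. Of the 10 BMP genes this held for *Id1*, with a log2 difference of -0.77. Among the other pathway genes the difference was positive for *Bmp1* (0.94), *Acvrl1* (0.90), *Eng* (0.73), *Rgma* (1.16), *Chrdl1* (1.07), *Chrdl2* (0.91), *Fstl1* (0.69) and *Id4* (0.89). It was negative for *Bmp5* (-0.99), *Skil* (-1.17), *Hes1* (-1.13) and *Dlx5* (-1.57). With 3 arrays per group, single arrays were not tested as outliers.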

How the results depend on the processing

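No called value changed sign in any alternative, and 20 of the 30 log2 differences of the 10 BMP genes kept their sign in all 22, while 10 that were not called did not. For example, *Id2* in *Mig-6* d/d against control ran from -0.17 to 0.24 and *Id3* between the knockouts from -0.20 to 0.19. *Id1* was called in the double mutant against *Mig-6* d/d in 19 of 22 alternatives, with log2 fold changes of -0.88 to -0.65 and adjusted p = 0.00926 to 0.171. Some of the 19 were no real test of the call. Dropping the fold limit or allowing adjusted p under 0.1 could only keep it. Averaging probe sets left its log2 fold change as it was, since *Id1* has 1. The unadjusted t-test counted as a call although its adjusted p was 0.171. The choice without probe sets matching several transcripts, given below, is not among the 22. No other BMP gene was called at its leading probe set in any alternative. In *Mig-6* d/d against control, the double mutant against control, and the double mutant against *Mig-6* d/d, in that order here, an offset of 16 gave 354, 57 and 855 called probe sets in all, and 1 and 4 wider pathway genes in the first and last. Fitting only the 6 arrays compared gave 612 and 90 in the first 2 comparisons. Without the fold limit 2 BMP probe sets passed in the last comparison. At adjusted p under 0.1, 8 wider genes and 1974 probe sets passed in the first. The methods' t-test without adjustment, with the 1.5-fold limit, gave 1 and 1 BMP probe sets and 7 and 2 wider genes in the first 2 comparisons, and 529 of all in the second. After Benjamini-Hochberg it gave 0 BMP and 0 wider calls in each comparison, and 0, 0 and 35 of all. Without probe sets marked as matching several transcripts, 0 BMP probe sets were called in the last comparison, since the only *Id1* probe set is of that kind. The other causes were not tested. Leaving out 1 array gave 0 to 1 BMP calls in the first comparison (1 without double-mutant replicate 3) and 0 to 1 in the last (0 without *Mig-6* d/d replicate 1 or double-mutant replicate 3). The wider counts were 0 to 12 in the first (0 without control replicate 2, *Mig-6* d/d replicate 1 or *Mig-6* d/d replicate 3, and 12 without control replicate 3) and 6 to 14 in the last (6 without double-mutant replicate 1, 7 without replicate 2). Over all probe sets the counts were 353 to 1762, 86 to 156 and 1133 to 2545. The lowest came without control replicate 2 in the first comparison (357 and 419 without *Mig-6* d/d replicates 1 and 3) and without double-mutant replicate 1 in the others. Without double-mutant replicates 2 and 3 the second gave 95 each, and the last gave 1262 without double-mutant replicate 2 and 1334 and 1458 without *Mig-6* d/d replicates 1 and 3. With the replicate number as a block, 0, 0 and 1 BMP probe sets, 6, 0 and 14 wider genes and 1451, 134 and 2505 of all were called, and *Id1* had adjusted p = 0.0274.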

Other observations

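Control replicate 3 differed from the other control arrays at some pathway genes, named here after their values were seen. *Msx2*, a homeobox target of BMP signalling, measured 17.1, 23.1 and 25.5 in the double-mutant arrays, 89.4, 61.4 and 59.9 in the *Mig-6* d/d arrays, and 22.8, 22.9 and 88.2 in the control arrays. *Wnt4*, a Wnt ligand needed for decidualization in mice, measured 20.01, 14.6 and 32.2 in the double-mutant arrays, 80.5, 48.3 and 50.3 in the *Mig-6* d/d arrays, and 29.5, 36.7 and 86.9 in the control arrays. At both genes control replicate 3 lay with the *Mig-6* d/d arrays and the other control arrays lay near the double-mutant arrays. Without control replicate 3, limma called *Msx2* in the double mutant against *Mig-6* d/d (log2 fold change -1.68, adjusted p = 0.00187) and in *Mig-6* d/d against control (1.59, adjusted p = 0.00813). *Wnt4* was then called in the double mutant against *Mig-6* d/d (-1.46, adjusted p = 0.0168), *Dlx5* in *Mig-6* d/d against control (1.69, adjusted p = 0.0159) and *Fst* in *Mig-6* d/d against control (-1.67, adjusted p = 0.0391). At these genes control replicate 3 lay far from the other control arrays, and *Msx2*, *Wnt4* and *Fst* were named for that. Leaving it out lowers the control spread there, so these calls are no independent test.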
